A study of Bos taurus with 16 samples.

Results

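The HOX cluster genes were taken as all genes whose name is HOX, a cluster letter from A to D and a position number, which gave 39 genes of the 38959 in the first blastocyst table, the 37429 in the second and the 28303 in the stem cell table. All 39 were listed in each table, with 11 in the HOXA cluster, 10 in HOXB, 9 in HOXC and 9 in HOXD. The libraries came from wild-type bovine material. The first table holds single in vitro fertilized blastocysts of day 8 that were cultured with vehicle (DMSO, 3 libraries) or with 10 µM LY2955303 (LY10, 3 libraries), an inhibitor of retinoic acid receptor gamma, from the 2-cell stage on. The second table holds blastocysts given LY2955303 from the 2-cell stage (cell2_LY), from the 16-cell stage (cell16_LY) or vehicle (LY_DMSO), with 2 libraries each, and the labels state no concentration for these. The stem cell table holds 2 libraries of bovine embryonic stem cells (bESCs) in the culture medium tifx (bESC_tifx) and 2 in LY2955303 (bESC_LY), which the methods give as 10 µM for 3 days. LY stands for LY2955303 below. The stem cells grew on a layer of mouse embryonic fibroblasts, and nothing in the labels ties a library to a line, culture or sire, so p-values measure the spread between these libraries.

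HOX genes encode homeodomain transcription factors that give cells along the head-to-tail axis their identity. Within a cluster all genes lie on the same strand, and those with low numbers, at the 3′ end, are switched on earliest and act nearest the head, while those with high numbers, at the 5′ end, follow later and act nearest the tail. Retinoic acid acts through its receptors on elements near the low-numbered genes and is a classical activator of the clusters. Before gastrulation the clusters are known as silent chromatin held by Polycomb proteins. Positions 1 to 3 are called anterior here, 4 to 8 central and 9 to 13 posterior.

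By the gene table of RefSeq for the assembly ARS-UCD2.0, with which the start and end of 38 of the 39 members agreed, HOXA lies on chromosome 4 from 68842241 to 68947578, HOXB on chromosome 19 from 37791919 to 37959268, HOXC on chromosome 5 from 25977635 to 26093573 and HOXD on chromosome 2 from 20724251 to 20820802. Each library held between 7905768 and 31230432 reads on genes. A gene at 0 reads was given a limit of 3 reads, which came to no more than 4.09 normalized counts for the first blastocyst libraries, 3.50 for the second and 3.18 for the stem cells. A normalized count is the number of reads scaled to a common library size within a table. Limits and counting intervals cover counting error only. The blastocyst tables draw the members with other gene models than the stem cell table does. In the former the spans of 14 members overlap another member, and the whole spans of HOXA4, HOXA6, HOXB4, HOXB5 and HOXB6 lie under a longer neighbour, while 4 spans overlap a member among the stem cells' gene models. How the counter treated shared bases and strand is not given in the sources used here, so the values of overlapping members are uncertain.

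The data held 3 very different HOX patterns. Blastocysts had a thin and patchy set led by central and posterior genes, the stem cell libraries numbered 2 had traces of most genes, and the stem cell libraries numbered 3 had FPKM of at least 1 in both media for all anterior genes, all central genes and part of the posterior ones, from HOXA9 to HOXA11, HOXB9, HOXC9, HOXC10 and HOXD9. FPKM are fragments scaled by gene length and library size, which the authors computed, and their map shows these values for 38 of them at once.

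**Figure D1:**
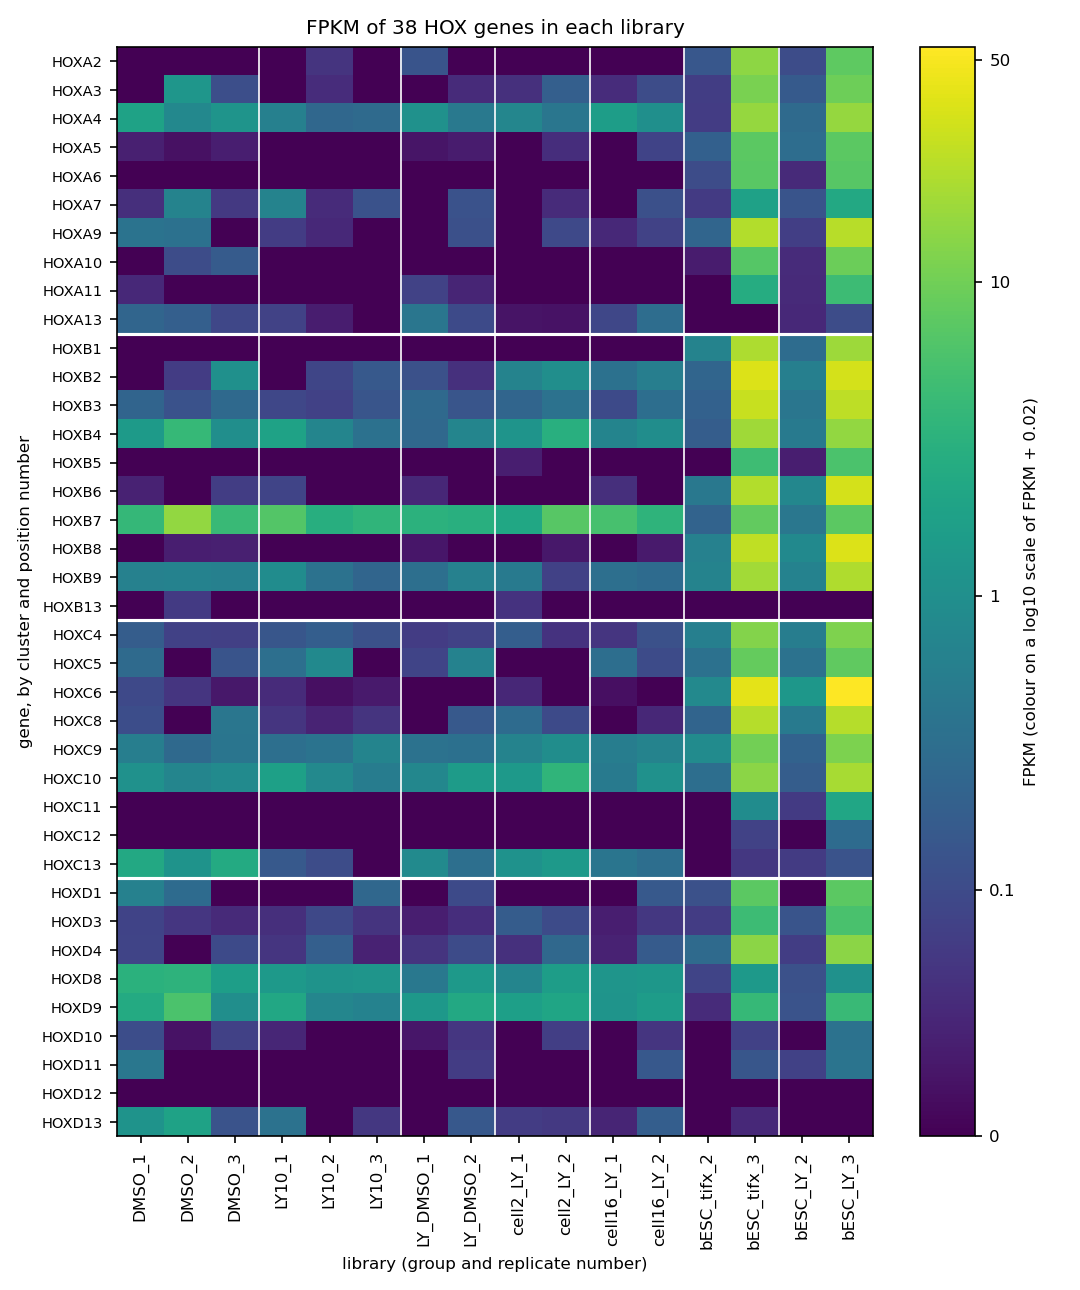
FPKM of 38 HOX genes (rows, by cluster and position number, white lines between clusters) in the 16 libraries (columns, white lines between groups), with colour on a log10 scale of FPKM + 0.02. The libraries bESC_tifx_3 and bESC_LY_3 are bright for most genes up to position 9 of every cluster, and the blastocysts hold a few rows of middling colour, HOXB7 the brightest.

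A member was counted as read in a group when each library held at least 3 reads. Of the 39 members, 14 were read in DMSO, 11 in LY10, 14 in LY_DMSO, 15 in cell2_LY and 14 in cell16_LY. These counts depend on depth and on the number of libraries, which was 3 a group in the first table and 2 in the second. LY10 replicates 1 and 3 held 7905768 and 8290129 reads on genes, against 10247618 to 12767426 in the DMSO libraries. Across all 12 blastocysts 11 members were read in every library. They were HOXA4, HOXB3, HOXB4, HOXB7, HOXB9, HOXC4, HOXC9, HOXC10, HOXD3, HOXD8 and HOXD9, of which 2 are anterior, 5 central and 4 posterior. In no blastocyst were 9 members read, and among them were the most anterior HOXB1 and the posterior HOXC11, HOXC12 and HOXD12, all with 0 reads in each of the 12. HOXA6, HOXB5, HOXB8 and HOXB13 were not read either, and of these HOXA6 and HOXB5 lie under longer neighbours. HOXC13, the last gene of its cluster and known for its part in hair and nail keratin, was read in 11 of 12.

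Levels between genes were compared by FPKM, which allows for the length of the gene model. HOXB7 stood first in the blastocysts, with a lowest value of 2.23, a median of 3.74 and a highest of 15.2. Its gene model in these tables is short, at 676 bases against 1635 in the stem cell table, and FPKM divides by that length. HOXD9 followed with a median of 1.65 (0.653 to 5.87), HOXD8 with 1.34 (0.456 to 3.36), HOXC10 with 0.967 (0.487 to 3.53) and HOXB4 with 0.965 (0.273 to 3.97). The ranges of these neighbours overlapped throughout. HOXC13 had a median of 0.635 and ranged from 0 to 2.50. All members together took between 18.8 and 64.9 RPM (reads scaled by the library's total as in FPKM, with no gene length) in a blastocyst, and posterior members made up between 39.7% and 60.7% of these reads against 2.5% to 14.9% for the anterior ones. Read depth at this level leaves wide counting error in each single embryo.

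The first comparison asks how HOX genes differ in blastocysts that grew in 10 µM LY. HOXC13 was almost lost. It had 59.8, 28.8 and 62.4 normalized counts in the 3 DMSO libraries (77, 29 and 57 reads) and 4.09, 2.68 and 0 in the 3 LY10 libraries (3, 4 and 0 reads). Each LY10 embryo lay below each DMSO embryo. Its log2 fold change was -4.19 (SE 0.90, limma adjusted p = 0.0783), which passed the study's threshold of an unadjusted p under 0.05 with an absolute log2 fold change above 1, and missed an adjusted p of 0.05. HOXD8, a central gene of the limb and trunk, had 89.3, 95.5 and 47.0 normalized counts in DMSO and 40.9, 32.8 and 35.0 in LY10. The groups did not overlap, and the log2 fold change of -1.01 (SE 0.44, limma adjusted p = 0.212) lay on the edge of the threshold. Without DMSO replicate 1 or 2, or LY10 replicate 1, 2 or 3, HOXD8 no longer passed it.

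Of the 11 members with a mean of at least 10 normalized counts, which were those tested, 2 were lower past the threshold (18.2%, against 8.51% of all 14249 genes tested) and 0 were higher (against 6.2%). After adjustment over all genes 0 members passed by limma and 0 by limma with voom weights, with 2 at an unadjusted p under 0.05 by either, and 0.014% of all genes passed. DMSO and LY10 had no overlap in 3 of these 11 members (27.3%), which is near the 28.1% of all genes tested. The median log2 fold change of the 11 was -1.01, against -0.05 over all genes, with 8 members below 0 and 3 above.

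The other members by cluster gave the following. In HOXA, HOXA4, a central gene of the neck and hindbrain region, had 34.2, 13.9 and 20.8 normalized counts in DMSO and 10.9, 4.69 and 5.18 in LY10, again without overlap, but its log2 fold change of -1.59 (SE 0.76) did not pass the test (limma adjusted p = 0.249). HOXA13, the last gene of the cluster and a regulator of the distal limb and hindgut, held too few reads to be tested. It had 17.9, 14.9 and 6.56 normalized counts in DMSO and 5.45, 1.34 and 0 in LY10, so each treated embryo lay below each control. Among other untested members, HOXA3 (52 reads in DMSO, 2 in LY10) and HOXA9 (19 and 2) were lower, and HOXA7 had 16 and 13. Each of these overlapped between the groups.

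In HOXB, HOXB4 (31.8, 84.6 and 20.8 in DMSO, 40.9, 15.4 and 7.77 in LY10), HOXB7 and HOXB9 overlapped between the groups, with log2 fold changes of -1.11, -0.61 and -0.49. HOXB7, a trunk gene, had 27.9, 109 and 30.6 normalized counts in DMSO and 47.7, 20.8 and 25.9 in LY10. HOXB9, its posterior neighbour, had 35.7, 37.8 and 35.0 in DMSO, close together, and 53.2, 21.5 and 14.2 in LY10, on both sides of them. The untested HOXB2 (16 reads in DMSO, 4 in LY10) and HOXB3 (32 and 13) were lower, with overlap between the groups. In HOXC, the other members tested, HOXC4, HOXC9 and HOXC10, did not follow HOXC13. HOXC11 and HOXC12, which lie between HOXC10 and HOXC13, had 0 reads in DMSO and LY10. Among the untested, HOXC6 (15 reads in DMSO, 4 in LY10) and HOXC8 (15 and 3) were lower, and HOXC5 (4 and 12) was higher. Each of these overlapped between the groups. HOXC9 had 38.8, 18.9 and 27.4 normalized counts in DMSO and 23.2, 26.1 and 46.6 in LY10, a log2 fold change of 0.16 (SE 0.55). HOXC10, a gene of the lumbar region, had 25.6, 16.9 and 20.8 in DMSO and 42.3, 19.4 and 12.9 in LY10. HOXC4, at the 3′ end, had 17.9, 6.96 and 6.56 in DMSO and 13.6, 18.1 and 11.7 in LY10. Their log2 fold changes were 0.08 and 0.55, and neither passed the test.

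In HOXD, HOXD13, the partner of HOXA13 in the digits, had 28.7, 47.8 and 3.28 normalized counts in DMSO and 9.54, 0 and 1.29 in LY10. The third DMSO embryo lay within the LY10 range, and the log2 fold change of -2.67 (SE 1.34) did not pass (limma adjusted p = 0.269). Without DMSO replicate 3 both HOXD13 and HOXD9 passed the threshold and 4 members did so in all, and without LY10 replicate 1 HOXD13 passed with HOXC13. HOXD9 had 50.5, 116 and 19.7 in DMSO and 45.0, 14.7 and 12.9 in LY10, which overlap. Among untested HOXD members, HOXD1 (22 reads in DMSO, 4 in LY10), HOXD10 (23 and 2) and HOXD11 (12 and 0) were lower. HOXD3 (25 and 28) and HOXD4 (11 and 20) were higher, and each of these members overlapped between the groups. HOXB13 had a single read in the 6 libraries.

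**Figure D2:**
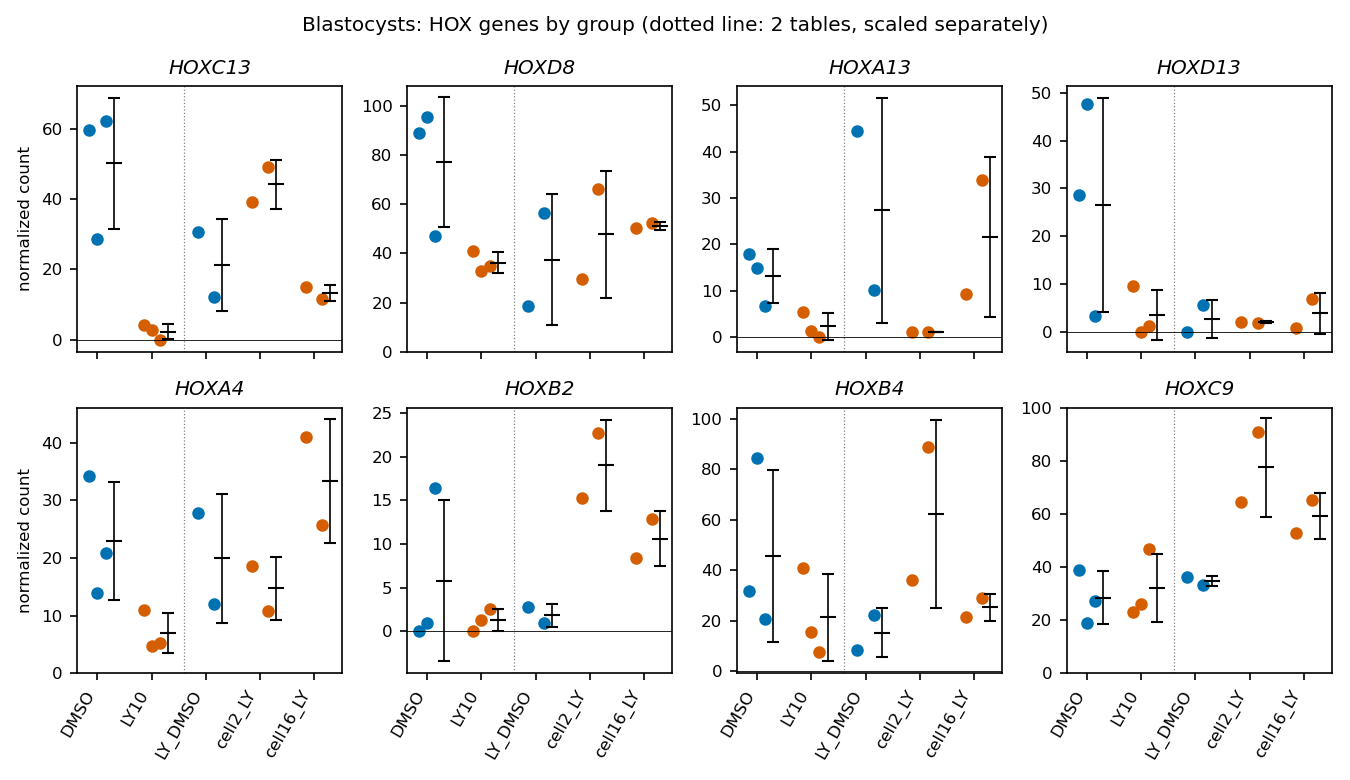
Normalized counts of 8 HOX genes in each blastocyst (points, vehicle in blue and LY in orange) by group, with the mean and SD beside them (bars). The dotted line parts the 2 tables, which were scaled separately. HOXC13 is below 5 in each LY10 embryo and above 25 in each DMSO embryo, and HOXA13 is near 1 in both cell2_LY embryos.

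Other cells or RNA sources moved along with this result. Of 18 fibroblast markers, 8 of them tested, 5 were lower in LY10 past the threshold and 0 higher (DCN, COL1A2, S100A4, FBN1 and TWIST1), and their summed level was 53.6 to 111 FPKM in DMSO and 9.32 to 16.7 in LY10, with between 4 and 10 of the 18 at 0 reads in a library. TWIST1, a mesenchymal transcription factor, and S100A4, a calcium-binding protein of motile cells, had the lowest log2 fold changes of these, -3.74 and -3.36. The 10 cumulus cell markers summed to 15.4 to 24.3 FPKM in DMSO and 6.53 to 18.8 in LY10, with 1 of 6 tested lower (HSD3B1) and 0 higher. Of 11 tested epiblast markers POU5F1 (log2 fold change 1.23) and DPPA4 (1.59) were higher and KLF4 (-1.29) was lower, and the list summed to 938 to 1075 FPKM in DMSO and 1065 to 1394 in LY10. Of 8 tested hypoblast markers HNF4A (3.31) and PDGFRA (3.74) were higher and LAMB1 (-1.07) was lower, with sums of 184 to 313 and 242 to 373 FPKM. The trophectoderm markers summed to 3071 to 7702 FPKM in DMSO and 4488 to 10395 in LY10, so the tissue label was borne out by its markers. Past the threshold, 1 of these 12 was lower in LY10, ELF3 (-1.53), and 0 were higher. The part of these cell types in the HOX values was not tested, and in whole embryos fewer cells of a type and less RNA per cell cannot be told apart.

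The pathway around the clusters was read from lists. Of 13 retinoic acid response genes 7 were tested, and 3 were lower in LY10 past the threshold with 0 higher. Among them were CRABP2, which brings retinoic acid to the receptors (log2 fold change -3.54, limma adjusted p = 0.114) and NRIP1, a corepressor of nuclear receptors (-1.04, limma adjusted p = 0.164). The list had a median of -0.56. Among 12 tested trithorax and H3K27 demethylase genes 3 were higher and 0 lower, namely KMT2D, a methyltransferase of enhancers (1.24), MEN1, a partner of related methyltransferases (1.13), and WDR5, a core subunit (1.01). Of 28 tested Polycomb genes 0 were higher, and their median was -0.11. Of the HOX cofactors (PBX, MEIS and PREP proteins, which bind DNA with HOX proteins) 0 of 7 passed, with a median of -0.18. The ParaHox and EVX genes had 1 member tested, CDX2, which did not pass.

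The next comparison asks whether the stage at which LY was given matters. With LY from the 2-cell stage, HOXA13 was lower and the 3′ genes HOXB2 and HOXB4 were higher than in LY_DMSO. HOXA13 had 44.5 and 10.2 normalized counts in LY_DMSO (48 and 11 reads) and 1.09 and 0.986 in cell2_LY (1 read in each). On the summed reads LY_DMSO was 26.3 times cell2_LY, with a counting interval from 6.97 to 223. The log2 fold change was -3.47 (SE 1.19, limma adjusted p = 0.133). Without LY_DMSO replicate 1, HOXA13 no longer passed the threshold.

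HOXB2, a hindbrain gene, had 2.78 and 0.924 normalized counts in LY_DMSO and 15.3 and 22.7 in cell2_LY, a log2 fold change of 2.86 (SE 1.09, limma adjusted p = 0.160). HOXB4, which is known for expanding blood stem cells, had 8.34 and 22.2 in LY_DMSO and 36.0 and 88.8 in cell2_LY, a change of 1.97 (SE 0.78, limma adjusted p = 0.170). Neither gene overlapped between the groups. HOXB2 lost the call without LY_DMSO replicate 2 or either cell16_LY replicate, and HOXB4 lost it without cell2_LY replicate 2, LY_DMSO replicate 1 or either cell16_LY replicate.

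Of 14 members tested, 2 were higher past the threshold (14.3%, against 8.71% of the 14529 genes tested) and 1 lower (7.14%, against 8.34%), while 0 passed after adjustment by limma or by limma with voom weights, where 0.0138% of all genes did. At an unadjusted p under 0.05 there were 3 members, and 1 with voom weights. LY_DMSO and cell2_LY had no overlap in 6 of these 14 (42.9%), fewer than the 53.7% among all genes. The median log2 fold change was 0.51, against 0.003 over all genes, and 11 of 14 members lay above 0. HOXD3 (3.71 and 7.39 in LY_DMSO, 36.0 and 20.7 in cell2_LY) and HOXC9 (36.1 and 33.3, then 64.4 and 90.7) also did not overlap, with changes of 2.17 and 1.12 that did not pass the test.

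Apart from HOXC13, the other members tested overlapped between cell2_LY and LY_DMSO. HOXA4 had 27.8 and 12 normalized counts in LY_DMSO, 18.6 and 10.9 in cell2_LY and 40.9 and 25.7 in cell16_LY. HOXB3 had 18.5 and 9.24, 16.4 and 24.7, then 6.51 and 22.2. HOXB7 had 33.4 and 30.5, 22.9 and 72, then 55.8 and 35.0. HOXB7 lay above LY_DMSO in both cell16_LY embryos, though its change of 0.46 did not pass the test. HOXB9 had 27.8 and 50.8 in LY_DMSO, 40.4 and 5.92 in cell2_LY and 27.9 and 24.5 in cell16_LY. HOXD8 had 18.5 and 56.4, 29.5 and 66.1, then 50.2 and 52.5. HOXD9 had 38.0 and 67.5, 49.1 and 59.2, then 33.5 and 44.3. HOXD8, which was lower with LY in the first table, thus had no treated embryo here below both vehicle embryos. HOXC4 stood between 5.92 and 26.2 in all 6 libraries, and its highest and lowest values were both in cell2_LY.

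HOXC13 went the other way from the first table. It had 30.6 and 12 normalized counts in LY_DMSO and 39.3 and 49.3 in cell2_LY, a log2 fold change of 1.15 (SE 0.76, limma adjusted p = 0.373), which did not pass. The 2 tables differ in their vehicle groups as well, and the difference between their LY effects was not tested.

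With LY from the 16-cell stage 0 of the 14 members passed the threshold against LY_DMSO in either direction, where 3.25% of all genes were higher and 1.97% lower. After adjustment 0 members passed by limma, 0 at an unadjusted p under 0.05 by limma or with voom weights, and 0% of all genes. The smallest adjusted p among the members was 0.706. HOXB2, at 8.37 and 12.8 normalized counts, lay above LY_DMSO without overlap and had a log2 fold change of 2.08 (SE 1.09). Groups did not overlap for 3 members (21.4%, against 42.9% of all genes), and the median change was 0.19. cell2_LY and cell16_LY were each compared with the same 2 vehicle libraries.

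The comparison of the start stages with each other gave 1 member of 14 (7.14%), HOXA13, which was higher in cell16_LY, with 9.30 and 33.8 normalized counts (10 and 29 reads) against 1.09 and 0.986 in cell2_LY. On the summed reads cell16_LY was 19.5 times cell2_LY, with a counting interval from 5.04 to 166, and the log2 difference was 3.22 (SE 1.19, limma adjusted p = 0.230). Of all genes 5.58% were higher and 5.77% lower, and 0% passed after adjustment, as did 0 members by limma and 0 with voom weights, against 1 and 0 at an unadjusted p under 0.05. The call was lost without either cell2_LY replicate and without cell16_LY replicate 2. HOXC13 (14.9 and 11.7 in cell16_LY, 39.3 and 49.3 in cell2_LY) and HOXC10 (16.7 and 37.3, 48.0 and 121) lay lower without overlap, at -1.67 and -1.57, and did not pass. The start stages had no overlap in 8 of these 14 (57.1%, against 54.5% of all genes).

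**Figure D3:**
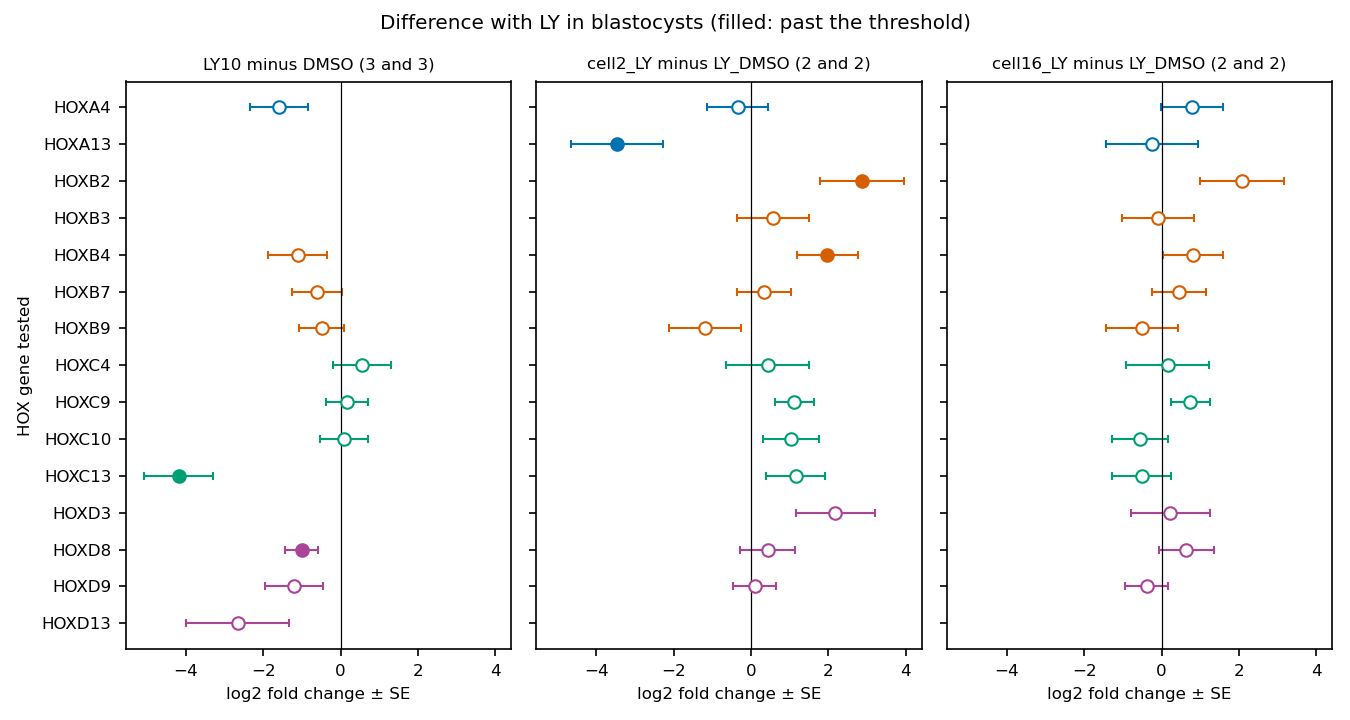
Log2 fold change with its SE (x axis) of each HOX gene tested (y axis, coloured by cluster) for LY10 against DMSO, cell2_LY against LY_DMSO and cell16_LY against LY_DMSO. Filled points passed the study's threshold. HOXC13 sits at -4.19 on the left and at 1.15 in the middle, and HOXA13 at -3.47 in the middle and -0.25 on the right.

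Markers of several cell types moved with these HOX values. CDX2, a caudal-type homeodomain factor that specifies trophectoderm and, later, activates central HOX genes, had 8.34 and 12 normalized counts in LY_DMSO and 78.6 and 71.0 in cell2_LY (log2 fold change 2.78, limma adjusted p = 0.0811), and 23.2 and 17.5 in cell16_LY. Of the 12 trophectoderm markers 4 were higher in cell2_LY past the threshold and 0 lower, and the list summed to 4496 to 5733 FPKM in LY_DMSO and 6259 to 8814 in cell2_LY, with 0 markers at 0 reads. RARB, a direct target of the retinoic acid receptors, had 195 and 307 normalized counts in LY_DMSO and 21.8 and 39.5 in cell2_LY, a change of -3.01 (limma adjusted p = 0.0711), and was the single retinoic acid response gene of 7 tested to pass. Of 29 Polycomb genes 4 were higher and 2 lower, led by PHF1 (2.09), RBBP4 (-1.95), PHF19 (1.65) and RBBP7 (-1.64), and 0 of 7 HOX cofactors passed. Of 8 tested hypoblast markers PDGFRA was lower in cell2_LY (log2 fold change -2.01), and of 11 tested epiblast markers ZFP42 (-1.35) and DPPA4 (-1.29) were lower. The epiblast list summed to 1012 to 1129 FPKM in LY_DMSO and 639 to 852 in cell2_LY, and the hypoblast list to 300.2 to 495 and 294 to 358. Of 3 tested cumulus markers STAR was higher (1.23), with sums of 8.46 to 22.3 and 13.3 to 53.7 FPKM. Of 8 tested fibroblast markers 0 passed in either direction, with sums of 14.9 to 22.3 FPKM in LY_DMSO and 13.8 to 21.0 in cell2_LY. The part of these genes and cell types in the HOX values was not tested.

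The stem cells differed between libraries far more than between media. The labels number the libraries 2 and 3 in each medium and give the 4 the same batch, and they do not say what the number stands for. In tifx the members took 458 reads in the library numbered 2 and 27022 in that numbered 3, or 15.4 and 848 RPM. In LY they took 561 and 29282 reads, or 19.4 and 917 RPM. Of the 39 members 22 were read in both libraries numbered 2, of which 6 were anterior, 12 central and 4 posterior. In both libraries numbered 3 there were 34, namely all 8 anterior, all 15 central and 11 of 16 posterior genes. The comparison by number was chosen after the values were seen, and with 1 library a number in each medium it has no test.

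HOXB1, the most anterior gene of its cluster, had 18 (tifx) and 8 (LY) reads in number 2 and 608 and 499 in number 3. HOXC6, a thoracic gene and the highest of all members in the libraries numbered 3, had FPKM of 0.820 (tifx) and 1.32 (LY) in number 2 and 40.4 and 55.1 in number 3. HOXB8 had 0.639 and 0.837, then 25.4 and 36.1. HOXA9, a posterior gene known from leukaemia, had 0.246 and 0.0673, then 22.0 and 23.4.

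At the 5′ end the levels were low. HOXA11 had 0 and 2 reads in number 2 and 187 and 322 in number 3, and HOXC11 had 0 and 2, then 35 and 83. HOXA13 had 0 and 1 reads, then 0 and 4. HOXC13 had 0 and 4, then 4 and 10. HOXC12 had 2 and 8 reads in number 3, HOXD10 had 0 and 0, then 4 and 21, HOXD11 had 9 and 25 in number 3, and HOXD13 had 0 and 0, then 1 and 0. HOXB13 and HOXD12 had 0 reads in all 4 libraries. HOXC13, which was read in 11 of the 12 blastocysts, thus had at most 10 reads in a stem cell library.

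**Figure D4:**
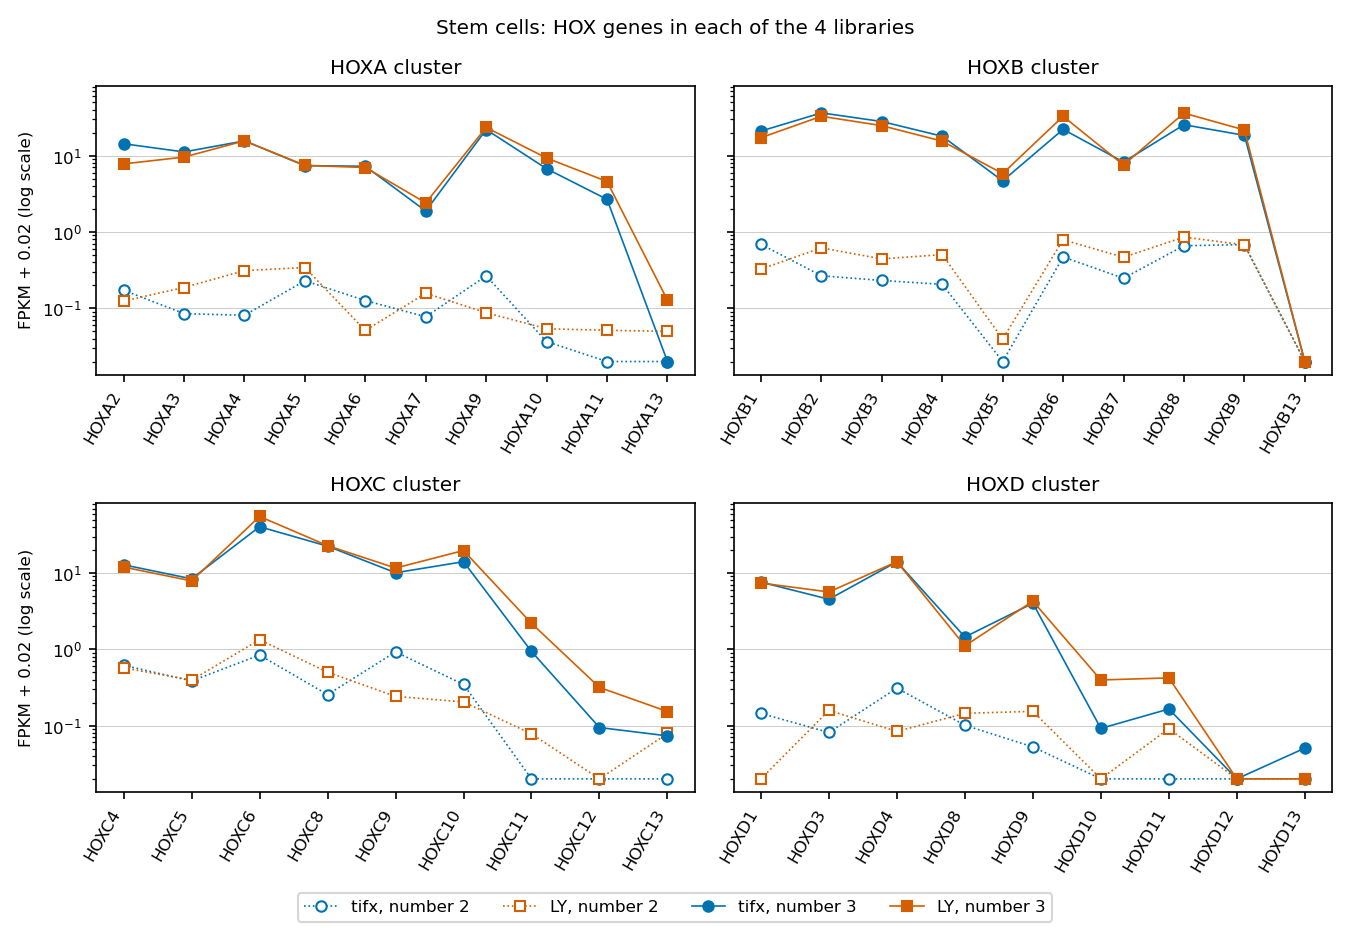
FPKM + 0.02 on a log axis of 38 HOX genes in the 4 stem cell libraries (circles tifx, squares LY, open symbols number 2, filled symbols number 3), 1 panel a cluster with genes in order of position. The filled lines run between 1.09 and 55.1 from position 1 to position 9 and end near 0 at position 13, and the open lines reach at most 1.32.

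Folds were taken on normalized count + 1 so that genes at 0 have a value. Of the 31 members tested in the stem cell table, 30 were at least 8-fold higher in number 3 in both media and 0 were lower by that fold. Of all 16012 genes tested, 85 (0.531%) were higher in this way and 58 (0.362%) lower. A member with few reads in number 2 could pass the filter only through number 3, so the count of 30 is a description and nothing is read from it. The 8 members that were not tested, HOXA13, HOXB13, HOXC12, HOXC13, HOXD10, HOXD11, HOXD12 and HOXD13, had at most 25 reads in a library. The remaining member, HOXD8, fell short of it. It had 2 and 3 reads in number 2 and 38 and 29 in number 3, a fold of 12.3 on the summed reads with a counting interval from 5.01 to 39.1. On summed reads over both media the folds of 30 members ran from 12.3 to 546 with a median of 52.6. Among the 30 members at least 8-fold higher in both media, HOXC9 ranked last by the lower of its folds in the 2 media. On reads it stood at 11.1-fold in tifx and 52.4-fold in LY, and at 19.1-fold on the summed reads.

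Most genes beside the clusters did not share the difference. Of 40 named genes that flank the clusters, 5 on each side, 38 had at least 40 reads in all, and their fold of number 3 over number 2 had a median of 0.949. SKAP1 beside HOXB and SKAP2 beside HOXA gave 5.14 and 3.94, and CREB5 gave the lowest, 0.288. EVX1, an even-skipped homologue at the 5′ end of HOXA that shares the clusters' origin, gave 53.4. Inside the clusters lay 32 genes that are not members, most of them unnamed RNAs. They had 167 reads over all 32 in number 2 and 7059 in number 3. Among the 12 with at least 40 reads, 11 had more than 8 times as many reads in number 3. A gene with few reads in number 2 could reach 40 reads only through number 3, so the count of 11 is a description and nothing is read from it.

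Some genes of the other lists differed between the numbers too, and their part in the HOX values was not tested. Of 5 tested ParaHox and EVX genes 3 were at least 8-fold higher in number 3 in both media. CDX2 had FPKM of 0.368 (tifx) and 0.243 (LY) in number 2 and 13.7 and 15.2 in number 3, CDX1 and EVX1 were the others, and CDX4, a further caudal factor, stood at 22.8 and 26.0, then 89.4 and 113. Of 14 regulators of tail bud and neural tube, a list made after the values were seen, 3 passed the same fold, SP5 (2.60 and 1.97, then 50.6 and 46.5), NKX6-1 and NEUROG2. Among 30 Polycomb, 13 trithorax and demethylase, 9 HOX cofactor and 11 retinoic acid response genes 0 did so in either direction, with median folds of 1.15, 1.14, 1.32 and 0.742.

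Most identity markers of the stem cells differed little between the numbers. POU5F1 (OCT4), the core pluripotency factor, had FPKM of 1086 (tifx) and 1117 (LY) in number 2 and 967 and 1012 in number 3, LIN28A had 843 and 847, then 868 and 960, and NANOG had 53.8 and 43.8, then 38.7 and 36.3. TDGF1, a coreceptor of Nodal, was lower in number 3 at 0.420 and 0.458 FPKM against 1.66 and 2.17, and KLF4 was higher at 3.04 and 3.17 against 1.41 and 1.75. Of 9 tested pluripotency markers 0 reached 8-fold, and the list summed to 2611 and 2579 FPKM in number 2 and 2498 and 2640 in number 3. The 18 fibroblast markers, which stand for a feeder layer, summed to 213 and 203 FPKM in number 2 and 271 and 257 in number 3. COL1A1 had 54.7 and 51.0, then 46.7 and 45.8, and 1 of 13 tested markers, TWIST1, was at least 8-fold higher, from 1.29 and 1.11 to 13.3 and 11.8. Trophectoderm markers summed to 451 and 399, then 154 and 140 FPKM, with KRT18 at 85.6 and 72.6, then 18.4 and 16.8. Of the 11 tested, 1 was at least 8-fold higher in number 3, CDX2, and 0 were lower by that fold. In both media 4 of the 11 were higher in number 3 and 4 were lower. Of 5 tested cumulus markers 1 reached 8-fold, GREM1 (0.264 and 0.224, then 7.28 and 10.4), and the list summed to 25.6 and 23.1, then 76.5 and 73.0 FPKM. Of 6 tested hypoblast markers 0 reached it, but their sum was 73.0 and 72.2, then 180.3 and 177 FPKM, led by FN1, a fibronectin that fibroblasts make as well (25.0 and 25.9, then 111 and 111). The part of mouse feeder RNA and of these cell types in the HOX reads was not tested.

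LY against tifx in the stem cells, with the libraries pooled by medium, gave 0 of 31 members past the threshold in either direction, where 0.0375% of all genes were higher and 0.0375% lower. After adjustment 0 members and 0% of all genes passed by limma, and 0 members had an unadjusted p under 0.05 by limma or with voom weights. The SE of the members' log2 fold changes ran from 1.66 to 4.38 with a median of 2.73, against 0.28 over all genes. Each group held a library with few and a library with many HOX reads. A difference of a few fold was not detectable this way. Without bESC_tifx replicate 3 or bESC_LY replicate 3, 2 and 3 members passed.

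Within the libraries numbered 3 the reads sufficed to set LY beside tifx, as 1 library a medium with no replicate check. There the anterior genes were mostly lower and the posterior genes mostly higher in LY. Of 31 members with at least 10 reads in both, 7 of 8 anterior ones were lower in LY, with 6 counting intervals below a ratio of 1. All 8 posterior ones were higher, with 5 intervals above 1. The 15 central ones were split, 9 higher and 6 lower. Over all genes given this ratio 7627 were higher and 8022 lower, and their intervals were not counted. The numbers of members with intervals off 1 thus have no share to stand beside, and nothing is read from them. As sums, anterior members had 8484 reads in tifx and 7383 in LY, central ones 12741 and 14762, and posterior ones 5777 and 7069.

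HOXA2, a gene of the second branchial arch and hindbrain, was furthest down, with 606 reads in tifx and 330 in LY, a log2 ratio of -0.88 after scaling to library size (counting interval -1.08 to -0.68). HOXB1 gave -0.29 (-0.46 to -0.11). HOXD3 was the exception among the anterior members, at 0.32 (0.13 to 0.51). Among members with at least 10 reads in both, HOXC11 was furthest up, with 35 and 83 reads and a log2 ratio of 1.24 (0.66 to 1.86), followed by HOXA11 at 0.78 (0.52 to 1.05). With fewer reads, HOXD10 gave 2.39 (0.82 to 4.39) and HOXD11 1.47 (0.32 to 2.75). HOXC10 gave 0.49 (0.36 to 0.61), HOXA10 0.47 (0.29 to 0.65) and HOXC6, a central gene, 0.45 (0.38 to 0.51). HOXB6 and HOXB8, also central, gave 0.57 and 0.51. HOXA4 and HOXA5 stood at 0.00 and 0.01, their intervals on both sides of 0.

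**Figure D5:**
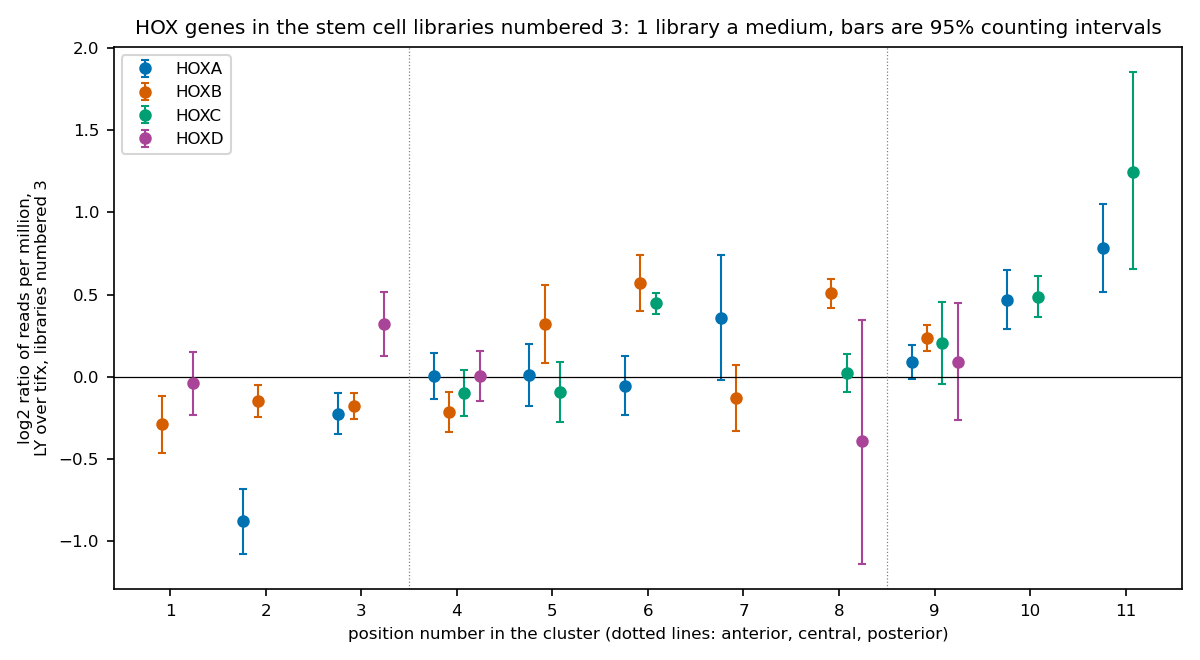
Log2 ratio of library-scaled reads, LY over tifx, in the stem cell libraries numbered 3 (y axis) for 30 HOX genes by position number in the cluster (x axis), coloured by cluster. Bars are 95% counting intervals of 1 library against 1 library. At positions 1 to 3 all points but HOXD3 lie below 0, and at positions 9 to 11 all lie above 0.

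For scale, among the 12100 genes with at least 100 reads in both of these libraries, 4.02% were above 0.3 on this log2 scale and 4.42% below -0.3, and their 5th and 95th percentiles were -0.29 and 0.27. Of the 29 members with as many reads, 9 (31.0%) were above 0.3 and 2 (6.90%) below -0.3. By class, 1 of 8 anterior members was above 0.3 and 2 below -0.3. Above 0.3 were 5 of 14 central and 3 of 7 posterior members, with 0 of either below -0.3. HOXA3 (-0.22), HOXB2 (-0.15), HOXB3 (-0.18) and HOXB9 (0.23) had counting intervals off a ratio of 1 but lay within these percentiles. Across these 29 members the ratio and the position number had Pearson's r of 0.69 and Spearman's rho of 0.74, which describes genes of shared clusters in 1 pair of libraries.

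The libraries numbered 2 did not show this order. Of 12 members with at least 10 reads in both, the 2 anterior ones, HOXB2 (11 and 26 reads) and HOXB3 (20 and 39), were higher in LY, and the 2 posterior ones, HOXB9 (79 and 76) and HOXC10 (20 and 11), had counting intervals that held 1. Of these 12, 9 were higher in LY and 3 lower, and 4 intervals lay above 1 and 0 below. Over all genes given this ratio in number 2, 7440 were higher and 7911 lower. Their intervals were not counted, so nothing is read from the 4. Asking for 10 reads in both leaves out genes with few reads in LY. Of such genes 3 had intervals below 1, HOXA9 (15 reads in tifx and 4 in LY), HOXC9 (21 and 5) and HOXD4 (14 and 3). HOXA4, left out for few reads in tifx (3 and 14), had an interval above 1.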

How the data were processed

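The members and the gene lists were chosen with earlier results of these data known. The deposited files give FPKM per gene and library, which the authors computed from reads counted on genes. Per the labels' processing notes the tools named were HISAT2 2.0.5, StringTie 1.3.3b, featureCounts 1.5.0-p3 and DESeq2 1.20.0, with no role given there. The aligner's genome build is not given in the sources used here. Columns of the authors' own fold changes and p-values were not used. Read counts were recovered from the FPKM, gene length and library size, and 100% of values came out whole within 0.02 reads. These reads were scaled to the geometric mean library size of each table (normalized count).

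Genes with a mean of at least 10 normalized counts were tested on log2(normalized count + 1) with limma 3.58.1 (R 4.3.3, moderated variance with an intensity trend), so fold changes of low genes are understated. p-values were two-sided, adjusted by Benjamini-Hochberg over all genes tested of a table. The groups of a table shared 1 estimate of the spread. Counting intervals are exact binomial at 95% (scipy 1.17.1). The fit was tested on simulated data. Every HOX gene entered the counts, with values in every library for those with a mean of at least 10. Values of some genes are not reported here. Of other lists at most the 4 genes past the threshold with the largest change were named. Alternatives covered the pseudocount, filters, scaling, weights, replicate numbers and leaving out each library.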

Additional observations from a re-analysis of the deposited data

Results flagged for a closer look

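Comparisons were marked where the effect of LY differed between settings. For HOXA13 the log2 effect with LY from the 16-cell stage exceeded that from the 2-cell stage by 3.215, tested as the difference between both groups since they share their vehicle libraries (limma adjusted p = 0.230). For HOXC13 the log2 fold change was -4.194 in LY10 against DMSO and 1.152 in cell2_LY against LY_DMSO. Each treated embryo lay below each control embryo in the former and above in the latter, and the difference between them was not tested.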

How the results depend on the processing

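Counts of HOX genes past the threshold were small and moved with the settings, and the cause was not tested. For LY10 against DMSO the 2 genes became 1 with a pseudocount of 5, median-of-ratios, quantile or reads-on-genes scaling, log2(FPKM + 1) or the replicate block, became 5 with array weights and 0 with a mean of at least 50, where 1 member was tested. Leaving out 1 library gave 1 to 4. HOXC13 passed in each setting that tested it. For cell2_LY against LY_DMSO the 3 became 5 with reads-on-genes scaling, 1 with voom weights and 0 with log2(FPKM + 1), a mean of at least 50 or a fit of the 2 groups alone, and 1 to 3 with a library left out. For cell16_LY against LY_DMSO the 0 became 1 with no filter and stayed 0 to 0 with a library left out. For cell16_LY against cell2_LY the 1 became 2 with a pseudocount of 5, the replicate block or the 2 groups alone, 3 with reads-on-genes scaling, 0 with log2(FPKM + 1), voom weights or a mean of at least 50, and 0 to 2 with a library left out.

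For the stem cells the 0 became 2 with the replicate block (HOXA11 and HOXD1), where HOXC6 also had a limma adjusted p of 0.00128, and 0 to 3 with a library left out. The log2 fold change of HOXC6 was 0.56, and with a library left out ran from -2.24 to 3.36, below 0 without bESC_tifx replicate 2 or bESC_LY replicate 3 (-2.13). Counting FPKM of at least 1 in place of 3 reads, 3 members were read in DMSO, 2 in LY10, 5 in cell2_LY, 2 in LY_DMSO, 4 in cell16_LY, 0 in bESC_tifx and 1 in bESC_LY. Counted by 3 reads with a library left out, these groups in the same order had 15 to 17, 11 to 12, 16 to 19, 18 to 22, 16 to 22, 24 to 34 and 26 to 36.

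The labels do not say that replicate numbers pair libraries. Deviations of same-numbered libraries correlated at -0.117, 0.168 and -0.0997 in the first table and 0.789 in the stem cells. In the second they correlated at 0.121, -0.133 and -0.232, and crossing the numbers of cell16_LY, chosen after seeing the data, gave 3, 0 and 1 calls.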
